A study of Mus musculus with 2 samples.

Results

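The genes described here encode the vesicular proton pump, the V-ATPase, and the transporters that use its gradient to load transmitter into synaptic vesicles. They were taken from the deposited table by symbol: every pump subunit and accessory gene (symbols beginning Atp6v0, Atp6v1, Atp6ap1 or Atp6ap2), the transporter families Slc17a1 to Slc17a8 and Slc18a1 to Slc18a3, and Slc32a1, Slc30a3, Tcirg1, Dmxl1, Dmxl2 and Wdr7. The choice by symbol gave 41 of the 32813 symbols: 13 genes of the V1 sector of the pump, 10 of the V0 sector, 3 accessory genes, 3 rabconnectin genes and 12 transporters. Slc18a3, the vesicular acetylcholine transporter gene, had no row under that symbol and was not analysed here.

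The series holds 1 group, type 5 retinal bipolar cells of the mouse, taken by fluorescence-activated sorting out of dissociated retinas of Htr3a-GFP mice, whose green fluorescent protein is driven by the promoter of Htr3a. The group has 2 libraries of total RNA, replicate 1 and replicate 2, described as biological replicates. The sources used here give no age, sex or number of animals for a library, and no other population or treatment belongs to the series, so every value is a level in the sorted cells. Levels are TPM (transcripts scaled to a fixed total in each library), which are per transcript length and so allow genes to be compared. TPM hold no read depth, which is therefore unknown, and intervals for counting error cannot be had.

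The V-ATPase is a rotary machine. Its V1 sector, on the cytosolic face, splits ATP, and its V0 sector, in the membrane, carries protons through a ring of proteolipid subunits into the vesicle, endosome or lysosome. The proton gradient then drives the loading transporters: the vesicular glutamate transporters (Slc17a6, Slc17a7, Slc17a8), the GABA and glycine transporter (Slc32a1) and the monoamine transporters (Slc18a1, Slc18a2). Bipolar cells release glutamate from ribbon synapses, where vesicles are released and refilled without pause.

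The sorted cells carried bipolar markers, with those of other retinal cells beside them. All 13 genes of a bipolar marker list and 5 of 7 type 5 genes were above 1 TPM. The test was limma, one-sided, with p adjusted by Benjamini-Hochberg over 19968 genes and under 0.05. The type 5 list includes Htr3a, whose promoter drove the sorted label, so its level is not independent of the sorting. Type 5 genes not above 1 TPM were Chrm2, at 0.08 and 1.15 TPM, and Slitrk5, at 0.55 and 2.15 TPM. Rod photoreceptor genes were also present, 12 of 15 above 1 TPM, with a summed level of 1804 TPM in replicate 1 and 1977 TPM in replicate 2. Of the Muller glia genes 6 of 11 were above 1 TPM, summing to 194 and 410.04 TPM, and of the cone genes 3 of 10. Among all genes tested 55.5% were above 1 TPM. The highest of the Muller glia list were Glul, at 75.8 and 124 TPM, Clu, at 85.7 and 79.5, and Vim, at 0.20 and 119. RNA of the mitochondrial genome with ribosomal RNA took 17.3% and 24.7% of the TPM, and a larger share of it lowers every other TPM. Rps27, a ribosomal protein gene that cells cannot do without, has a 0 in replicate 1 and 838 TPM in replicate 2, so a 0 is given as listed and not as absence.

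Each of the 8 subunits of V1 and the 5 of V0 had at least 1 gene above 10 TPM, whereas a single transmitter transporter, the VGLUT1 gene Slc17a7, was abundant. Of the 41 genes, 37 were above 0 in either library and so tested. Genes of any list at 0 in both were not tested and count as not above a line. Of the 37 tested members 24 were above 1 TPM, against 55.5% of all genes tested. Above 10 TPM were 20 of them, against 32.4% of all genes, and above 100 TPM 9, against 4.08%. The 24 comprised 9 of 13 V1 genes, 8 of 10 V0 genes, 2 of 3 accessory genes, 3 of 3 rabconnectin genes and 2 of 12 transporters. The 9 above 100 TPM were Atp6v0c, Slc17a7, Atp6v1a, Atp6v1b2, Atp6v1g1, Atp6v0a1, Atp6v1d, Atp6ap1 and Atp6v0d1. The fit took each gene's variance from the trend with level alone. Without that trend limma called 0 genes of the 41 above 100 TPM, and 7 at an unadjusted p under 0.05, while the counts above 1 and 10 TPM stayed at 24 and 20.

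**Figure D1:**
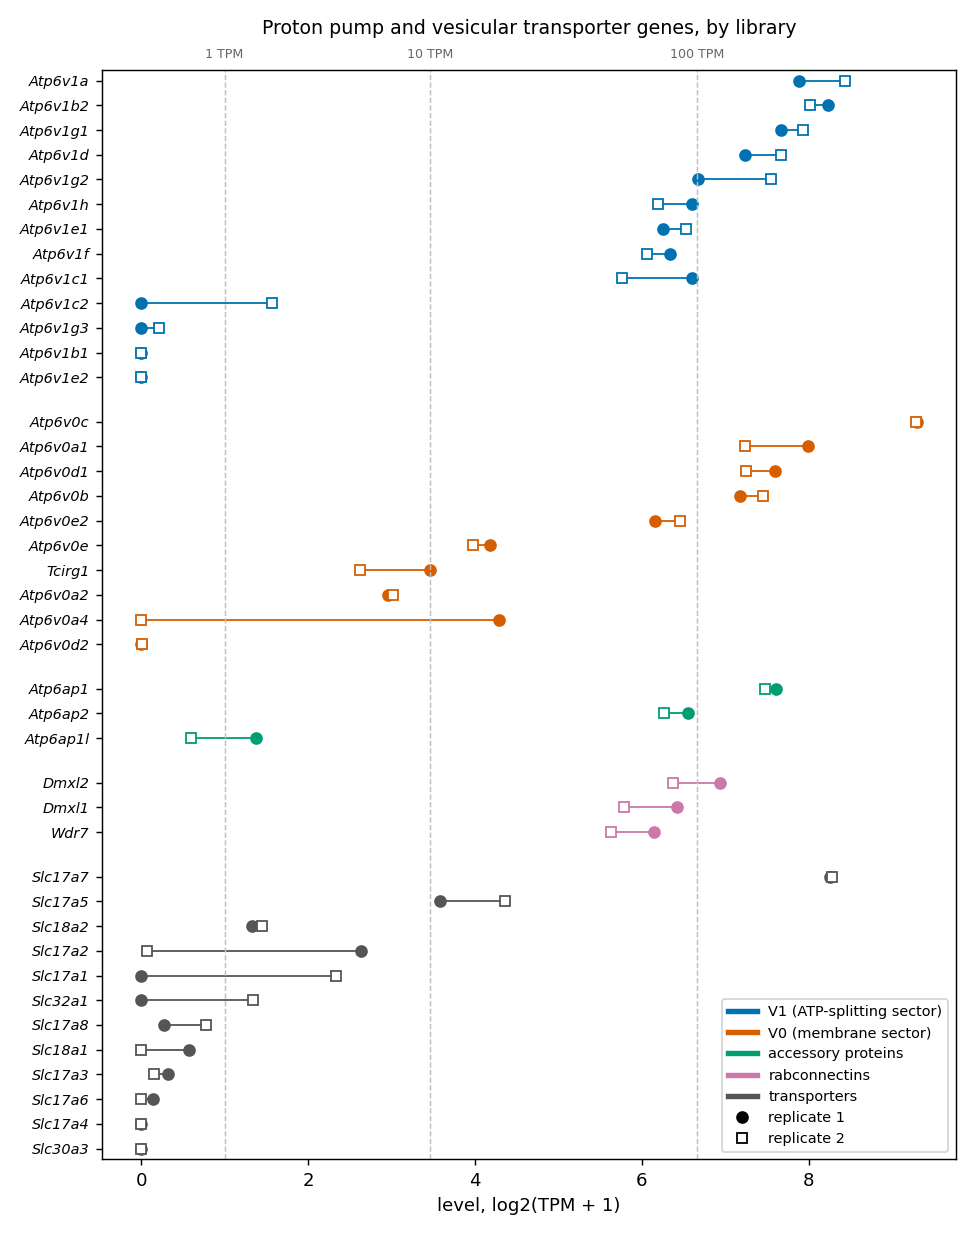
Level of each of the 41 genes on the log2(TPM + 1) axis, with replicate 1 as filled circles and replicate 2 as open squares, joined by a line and grouped by role. Dashed lines mark 1, 10 and 100 TPM. The main subunits and Slc17a7 lie to the right with short lines, and Atp6v0a4 spans from 18.5 TPM to a listed 0.

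All the pump subunits together made up 0.267% of all TPM in replicate 1 and 0.274% in replicate 2. The V1 genes summed to 1334 and 1520 TPM and the V0 genes to 1338 and 1215 TPM, so neither sector was the higher in both libraries. The median subunit stood at 6.31 on the log2(TPM + 1) scale, against 3.22 for all genes above 0 in either library.

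In the V1 sector, the single genes of highest mean level were those of the subunits that alternate to form the ATP-binding ring. Atp6v1a, the catalytic subunit A, had 235 TPM in replicate 1 and 345 in replicate 2. Atp6v1b2, the B subunit form found in brain and most tissues, had 299.6 and 258 TPM. Their order was exchanged between the libraries, so the levels of A and B cannot be parted beyond the spread. Atp6v1d and Atp6v1f encode the central rotor. Atp6v1d had 149 and 202 TPM, and Atp6v1f 79.6 and 65.8 TPM, with no overlap between the genes.

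The outer stalks, which hold the ATP-splitting ring still, are built from subunits E and G in equal number. Atp6v1e1 had 75.5 and 91.1 TPM, whereas Atp6v1g1 alone had 202 and 244 TPM. The ratio of Atp6v1e1 to Atp6v1g1 was 0.374 in both libraries. Atp6v1c1, which joins the stalks to the membrane sector and is released when the pump comes apart, had 96.0 and 53.3 TPM. Atp6v1h, which couples ATP splitting to proton flow, had 95.9 and 72.4 TPM. The E, C, F and H transcripts thus lay below those of A, B, D and G1 in both libraries.

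In the V0 sector, Atp6v0c, the proteolipid that is repeated around the proton-carrying ring, was the most abundant of all 41 genes. It had 627 TPM in replicate 1 and 625 in replicate 2, a mean of 626 ± 1.29 TPM (SD, n = 2), and its place in the order of all symbols by level was 141. Its transcript exceeded that of Atp6v0b, the proteolipid present as a single copy in the ring, by 4.37-fold and 3.59-fold. Atp6v0b had 144 and 174 TPM. Processed pseudogenes of Atp6v0c are annotated in the mouse (Atp6v0c-ps1 and Atp6v0c-ps2), and neither has a row in the table, so how reads shared with them were counted is not known.

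Atp6v0d1, which caps the ring and links it to the rotor, had 192 and 151 TPM. Atp6v0a1, the main form of the large subunit that holds the proton half-channels, had 253 and 150.4 TPM. The small subunit e was carried mostly by Atp6v0e2, with 70.2 and 86.9 TPM. Among the 15 subunit genes averaging 10 TPM or more, ordered by mean, 10 of the 14 neighbouring pairs overlapped between libraries. The 4 gaps without overlap lay after Atp6v0c, between Atp6v1b2 and Atp6v1g1, between Atp6v1g2 and Atp6v1h, and between Atp6v1f and Atp6v0e.

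The promoters of 4 pump genes are shown because they hold a motif tied to the regulation of lysosomal genes. The palindrome TCACGTGA is the centre of the CLEAR element, through which the factors TFEB, TFE3 and MITF act, and CACGTG is the E-box inside it. Both strands of the RefSeq promoter (GRCm38.p6, 250 bases before to 50 after the annotated start) were searched, and each motif reads the same on both strands. Below, capitals mark TCACGTGA in the promoters of Atp6v1a (chr16:44139344-44139431, minus strand), Atp6v0d1 (chr8:105566061-105566108, minus strand) and Atp6v0e (chr17:26676358-26676405, plus strand). In Atp6v0b (chr4:117887330-117887405, minus strand) they mark CACGTG, which occurs at 2 places.
Atp6v1a: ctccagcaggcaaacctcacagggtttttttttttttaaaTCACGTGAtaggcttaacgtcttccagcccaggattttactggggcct
Atp6v0d1: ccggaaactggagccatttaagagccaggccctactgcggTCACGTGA
Atp6v0e: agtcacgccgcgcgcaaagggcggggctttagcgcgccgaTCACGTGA
Atp6v0b: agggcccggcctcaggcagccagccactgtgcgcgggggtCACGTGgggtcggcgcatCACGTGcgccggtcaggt

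The motif positions differed. TCACGTGA began 132 bases before the RefSeq start in Atp6v1a, 4 bases before it in Atp6v0d1 and 2 bases after it in Atp6v0e. Other annotated starts differ. In GENCODE M21, Atp6v1a extends to position 44139705 on the minus strand, and Atp6v0e begins at 26663231 on the plus strand. The motifs of Atp6v1a and Atp6v0e thus lie inside those gene bounds. A promoter was on file for 30 of the 41 genes and for 17 of the 23 pump subunits. TCACGTGA was found in 3 of these 17 (17.6%) and in 1.12% of 27025 genes with a promoter. CACGTG, which every TCACGTGA contains, was found in 4 of 17 (23.5%) and in 8.09% of all. TAATCC, the core bound by the bipolar and photoreceptor factors OTX2 and CRX, was found in 1 of 17, Tcirg1, and in 8.14% of all. These matches are a description of letters. The genes that share TCACGTGA spanned much of the pump's range, from 17.1 and 14.8 TPM for Atp6v0e to 235 and 345 TPM for Atp6v1a. Of the 4 genes in the family of these factors, 3 were tested and 1, Tfe3, was above 1 TPM, against 55.5% of all genes tested. Tfe3 had 16.1 TPM in replicate 1 and 8.95 in replicate 2. Tfeb had 7.39 and 0.42 TPM, Mitf 0.63 and 0.36, and Tfec was listed at 0 in both.

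Several subunits have more than 1 gene, and in most of them a single form carried nearly all of the transcript. Shares here are of the TPM summed over the forms of a subunit in a library. With 2 libraries an exact two-sided test cannot go below p = 0.5, so shares are compared by whether their ranges overlap. Atp6v1b2 took 100% of subunit B in both libraries, and Atp6v1b1, the form of kidney and inner ear, was listed at 0 in both. Atp6v1e1 took 100% of subunit E, with Atp6v1e2, a testis form, listed at 0 in both. Atp6v0d1 took 100% of subunit d in replicate 1 and 99.99% in replicate 2, where Atp6v0d2, known from osteoclasts and kidney, was listed at 0.01 TPM. Atp6v1c1 took 100% and 96.4% of subunit C, since Atp6v1c2, listed at 0 in replicate 1, had 1.97 TPM in replicate 2. Exons of Atp6v1c2 overlap those of Pdia6 on the opposite strand, which had 38.1 and 51.6 TPM, and whether strand was used in counting is not given.

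**Figure D2:**
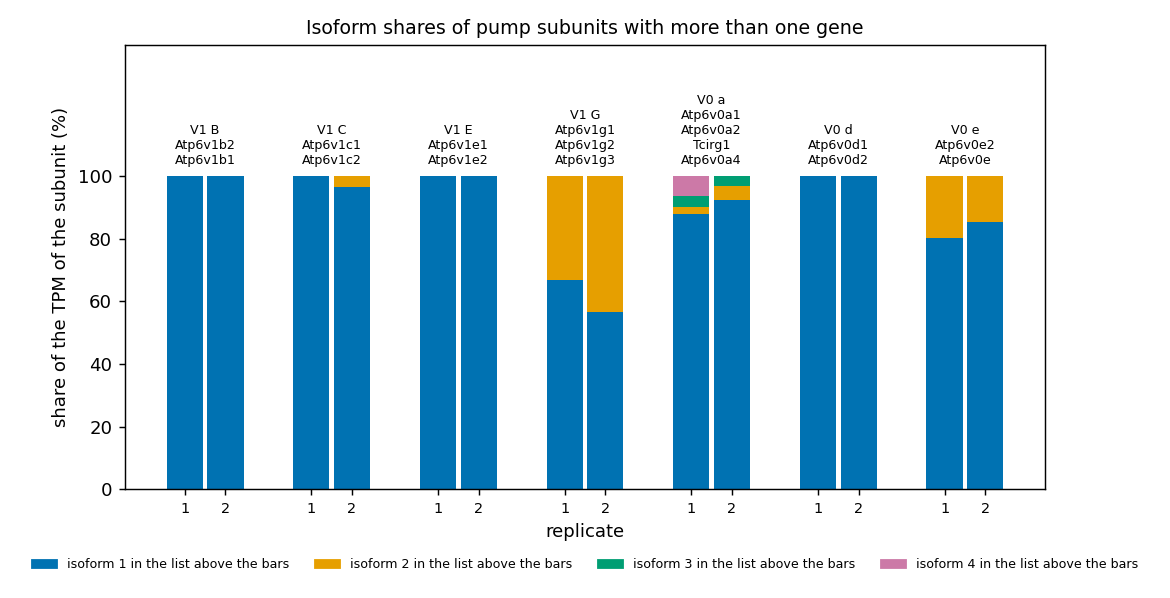
Share of each form, in % of the TPM of its subunit, for the 7 subunits with more than 1 gene, with a bar for each replicate. Colours follow the order of the gene names above the bars; B, C, E and d rest on 1 form, a on Atp6v0a1 at 87.8% and 92.5%, and G and e hold another form at over 10% in both libraries.

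Subunit G was shared between its general and its neuronal form. Atp6v1g2, a form enriched in neurons and synaptic vesicles, had 100.8 TPM in replicate 1 and 187 in replicate 2, or 33.3% and 43.4% of subunit G. Atp6v1g1, the general form, had the remaining 66.7% and 56.6%, and its lowest level, 202 TPM, was above the highest of Atp6v1g2. The ratio of the general to the neuronal form was 2.00 in replicate 1 and 1.31 in replicate 2. Atp6v1g3, known from kidney, was listed at 0 and at 0.16 TPM.

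Subunit e went the other way, with the brain form in the majority. Atp6v0e2 took 80.4% and 85.5% of subunit e. Atp6v0e, the general form, had 17.1 TPM in replicate 1 and 14.8 in replicate 2, and was above 1 TPM but not above 10 TPM. The ratio of Atp6v0e2 to Atp6v0e was 4.09 and 5.88, and the forms did not overlap.

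Subunit a decides to which membrane a pump goes, and it has the most forms, 4. Atp6v0a1, the form of synaptic vesicles and neurons, took 87.8% of subunit a in replicate 1 and 92.5% in replicate 2. Atp6v0a2, a form of the Golgi and endosomes, had 6.76 and 7.10 TPM, a mean of 6.93 ± 0.24 TPM (SD, n = 2). Tcirg1, which encodes the a3 form of lysosomes and of the osteoclast plasma membrane, had 10 and 5.18 TPM. Both were above 1 TPM and not above 10 TPM, and Atp6v0a1 exceeded Atp6v0a2 by 37.4-fold and 21.2-fold and Tcirg1 by 25.3-fold and 29.0-fold. Macrophages also use Tcirg1. Of 9 genes on the microglia and macrophage list 6 were tested. Of these limma called 0 above 1 TPM, and 0 at an unadjusted p under 0.05. Among all genes tested 55.5% were above 1 TPM. The list summed to 3.41 TPM in replicate 1 and 15.98 in replicate 2, and C1qa, C1qb and C1qc were listed at 0 in both libraries. Its highest members were Aif1, at 0 and 12.95 TPM, and Cx3cr1, at 2.01 and 1.34 TPM. The part of such cells in the Tcirg1 value was not tested.

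Atp6v0a4, the kidney form of subunit a, was the member on which the libraries differed most, with 18.5 TPM in replicate 1 and a listed 0 in replicate 2. It was not above 1 TPM by limma. Its exons overlap those of D630045J12Rik, a gene on the same strand that had 22.6 TPM in replicate 1 and 27.6 in replicate 2, and the part of shared reads in the Atp6v0a4 value was not tested.

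Of the accessory genes, 2 of 3 were above 10 TPM, against 32.4% of all genes tested. Atp6ap1, a glycoprotein needed to build V0, had 194 and 177 TPM, a mean of 186 ± 11.9 TPM (SD, n = 2). Atp6ap2, also called the prorenin receptor, had 93.2 and 75.8 TPM. Atp6ap1 was 2.08-fold and 2.34-fold higher than Atp6ap2, and both are on the X chromosome. Atp6ap1l, a paralog of Atp6ap1, had 1.59 and 0.51 TPM and was not above 1 TPM.

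The rabconnectins promote the joining of V1 to V0, which switches the pump on. All 3 of their genes were above 10 TPM, against 32.4% of all genes tested. Dmxl2, which encodes rabconnectin-3 alpha of synaptic vesicles, had 122 TPM in replicate 1 and 81.7 in replicate 2. Dmxl1, its paralog, had 84.9 and 54.2 TPM, a little lower within each library but overlapping Dmxl2 between them. Wdr7, the beta partner, had 69.6 and 48.5 TPM. All 3 were lower in replicate 2, by 0.51 to 0.64 on the log2(TPM + 1) scale, when the median of all genes above 0 was lower by 0.20. After rescaling without mitochondrial and ribosomal RNA, which raised the median level of all genes by 0.31, they were still lower, by 0.38 to 0.51. The median of all genes above 0 was then lower by 0.12, with 10869 of 19907 lower.

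Other factors that assemble or regulate the pump were examined on a list of 12 genes outside the symbol rule. Of the 12, 11 were tested. Above 1 TPM were 10, against 55.5% of all genes tested, and above 10 TPM 8, against 32.4%. Rogdi, whose protein is a partner of the rabconnectins, had 304 TPM in replicate 1 and 240 in replicate 2. This was 4.37-fold and 4.95-fold the level of Wdr7 and 2.50-fold and 2.94-fold that of Dmxl2. Rnasek, a small pump-associated membrane protein, had 261 and 424 TPM. Oxr1, of the TLDc family that binds V1, had 84.5 and 70.7 TPM and Tmem9 67.1 and 85.7 TPM. The lowest were Tldc1, at 0.35 and 5.09 TPM, and Tldc2, listed at 0 in both.

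The transporters showed a single dominant gene. Slc17a7, which encodes the vesicular glutamate transporter VGLUT1, had 306 TPM in replicate 1 and 309 in replicate 2, a mean of 307 ± 1.99 TPM (SD, n = 2). It ranked 363 among all symbols and lay above 98.2% of the genes above 0 in either library. Slc17a6, which encodes VGLUT2 of ganglion cells, was listed at 0.10 and 0 TPM. Slc17a8, which encodes VGLUT3 of an amacrine cell class, had 0.21 and 0.72 TPM. VGLUT1 thus took 99.9% of the vesicular glutamate transporter TPM in replicate 1 and 99.8% in replicate 2. The Slc17a7 gene occupies positions 45163949 to 45176142 of chromosome 7, plus strand (GENCODE M21, GRCm38, which is also called mm10), and the value is of the whole gene.

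Photoreceptors also load vesicles with VGLUT1. In these bulk libraries, fewer cells of a type and less RNA per cell cannot be told apart. Of the 15 rod genes 12 were higher in replicate 2, by a median log2 difference of 1.09 over the list, and none of the 15 was listed at 0. The cone list went the other way, with 9 of 10 genes lower in replicate 2, a median log2 difference of -0.85 and a sum of 209 TPM in replicate 1 and 57.4 in replicate 2. Slc17a7 differed by a log2 difference of 0.01 between the same libraries. The share of its transcript that came from rods and cones was not tested.

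Slc17a7 stood within the range of other vesicle membrane proteins. Of a list of 10 such genes, 9 were above 1 TPM and 7 above 10 TPM, against 55.5% and 32.4% of all genes tested. Syp, the synaptophysin gene, had 540.3 and 833 TPM, and Sv2b, a vesicle glycoprotein gene, had 312 and 295 TPM. Slc17a7 was 0.98-fold and 1.05-fold the level of Sv2b, with overlapping ranges, and 0.57-fold and 0.37-fold that of Syp. Sv2c was listed at 0.20 and 0 TPM.

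**Figure D3:**
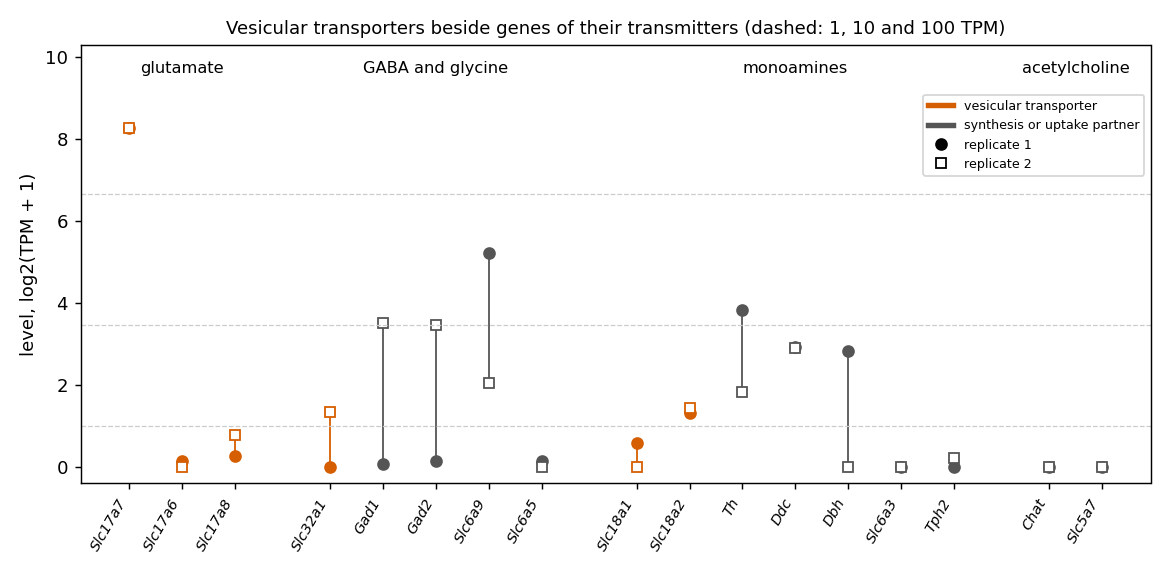
Levels on the log2(TPM + 1) axis of the vesicular transporters (orange) and of synthesis or uptake genes of the same transmitter (grey), with replicate 1 as circles and replicate 2 as squares. Slc17a7 lies above 100 TPM in both libraries, and no other gene plotted does so in either.

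Among the genes taken by symbol, limma called no vesicular transporter for GABA, glycine, monoamines or zinc above 1 TPM. The genes concerned were Slc32a1, Slc18a1, Slc18a2 and Slc30a3, of which Slc30a3 was not tested. Slc32a1, the GABA and glycine transporter of amacrine and horizontal cells, was listed at 0 in replicate 1 but had 1.53 TPM in replicate 2. The GABA-synthesis genes Gad1, at 0.06 and 10.4 TPM, and Gad2, at 0.11 and 9.94 TPM, were higher in the same library. The glycine uptake gene Slc6a9 went the other way, at 36.6 and 3.12 TPM. On the amacrine list of 12 genes 11 were tested and 5 were above 1 TPM, against 55.5% of all genes tested. The list summed to 1177 TPM in replicate 1 and 942 in replicate 2. Most of this was Prox1, at 702 and 468 TPM, and Meis2, at 408 and 335 TPM. Calb2 was listed at 0 in both libraries, Tfap2c and Slc32a1 itself in replicate 1, and Slc6a5 in replicate 2. On the horizontal cell list of 5 genes, summing to 197 and 223 TPM, 1 was above 1 TPM, Sept4, at 194 and 213 TPM. Calb1 of that list had 0.51 and 9.28 TPM and Lhx1 0.79 and 0.23 TPM. The part of such cells in the Slc32a1 value was not tested.

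Slc18a2, the vesicular monoamine transporter of neurons, was low but close in both libraries, at 1.51 and 1.72 TPM, and not above 1 TPM by limma. Slc18a1, the form of endocrine cells, had 0.49 TPM in replicate 1 and a listed 0 in replicate 2. Of 5 dopaminergic amacrine genes 3 were tested and 2 were above 1 TPM, against 55.5% of all genes tested. The list summed to 23.7 and 10.2 TPM, and Slc6a3 and Lmx1b were listed at 0 in both. Th, the dopamine-synthesis gene, had 13.3 and 2.55 TPM. Slc17a7 exceeded Slc18a2 by 202-fold and 179-fold. Chat and Slc5a7, the acetylcholine synthesis and choline uptake genes, were listed at 0 in both libraries, and so was Slc30a3, which loads zinc into vesicles.

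The other Slc17 genes are not transmitter loaders of the retina. Slc17a5, which encodes sialin, the exporter of sialic acid from lysosomes, was the other transporter above 1 TPM, with 10.96 TPM in replicate 1 and 19.5 in replicate 2. Slc17a7 exceeded it by 27.9-fold and 15.8-fold. Slc17a1 to Slc17a4, phosphate and urate transporter genes of kidney, liver and gut that lie side by side on chromosome 13, were low. On the log2(TPM + 1) scale the libraries differed by over 2-fold for Slc17a1 and Slc17a2. Slc17a1 was listed at 0 and had 4.04 TPM, Slc17a2 had 5.19 and 0.05 TPM, Slc17a3 had 0.25 and 0.11 TPM, and Slc17a4 was listed at 0 in both.

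Acid vesicles also need a counter-ion, since pumped charge would otherwise halt the pump, and a leak for protons. Of 10 chloride and proton exchanger genes measured, 8 were above 1 TPM and the same number above 10 TPM. The shares of all genes tested were 55.5% and 32.4%. Clcn4, also on the list, had no row under that symbol and was left out. Clcn3, the chloride and proton exchanger of synaptic vesicles and endosomes, had 109 and 96.1 TPM. Slc9a7, which lets protons out of the trans-Golgi network and endosomes in exchange for cations, had 76.0 and 41.9 TPM. The lowest were Clcn5, at 1.60 and 0.21 TPM, and Slc9a5, at 0.34 and 0.04 TPM. All 10 were lower in replicate 2, with a median log2 difference of -0.65, against -0.20 for all genes above 0 and -0.004 for the 15 pump subunits at a mean of 10 TPM or more. Of all 19968 genes above 0, 11680 were lower in replicate 2. After the rescaling above all 10 were again lower, with a median log2 difference of -0.57. The median of all genes above 0 was then -0.12, with 10869 of 19907 lower.

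The libraries matched closely for the abundant members. Of the 22 members averaging 10 TPM or more, 22 lay within 2-fold between the libraries on the log2(TPM + 1) scale, against 75.2% of the 9864 genes at that level. At 100 TPM or more it was 12 of 12 members, against 90.7% of all genes there, and at 10 to 100 TPM 10 of 10, against 72.1%. Among the abundant subunits, Atp6v1g2 differed most, 1.84-fold and higher in replicate 2, followed by Atp6v1c1, 1.79-fold and lower there. After rescaling, the log2 difference of Atp6v1g2 was 1.02, past 2-fold. The 19 members under 10 TPM were less alike, with 14 within 2-fold, of which Atp6v1b1, Atp6v1e2, Slc17a4 and Slc30a3 were listed at 0 in both. A further 8 were listed at 0 in 1 library.

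**Figure D4:**
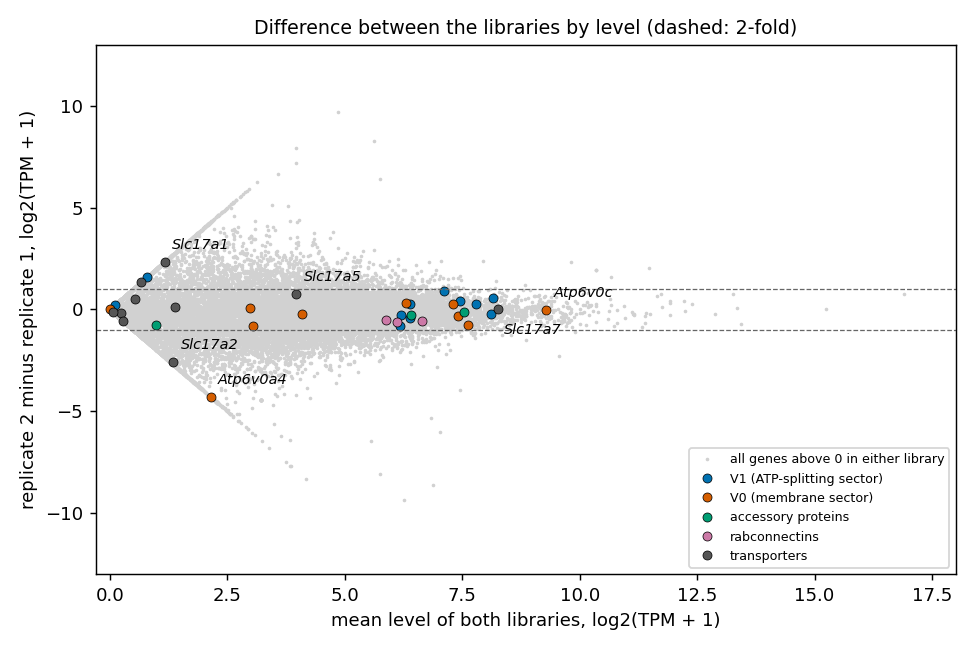
Difference between the libraries (replicate 2 minus replicate 1) against the mean level, both in log2(TPM + 1), for all genes above 0 in either library (grey) and for the members (coloured by role). Dashed lines mark a 2-fold difference; Slc17a7 and Atp6v0c lie on the zero line, and 5 members, Atp6v0a4, Slc17a1, Slc17a2, Atp6v1c2 and Slc32a1, lie outside the dashed lines.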

How the data were processed

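RNA of 2 libraries was measured by sequencing. The authors deposited 1 table of TPM values, with a column per library summing to 999999.75 and 999999.66. Build mm10, TopHat2 2.0.10 and RSEM 1.2.28 are named, with no role for each, per the submitters' processing notes. Per the labels' protocols, libraries were made with the NuGEN Ovation system V2, an amplification kit. No source used here gives the annotation release or the use of strand. The column of replicate 1 exchanges letters of the gene name and was matched by its replicate number.

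TPM was transformed to log2(TPM + 1), a pseudocount of 1 that understates differences of low genes. Levels above 1, 10 and 100 TPM were tested in limma 3.58.1 (R 4.3.3; intercept only, trended variance, one-sided, Benjamini-Hochberg over the 19968 genes above 0 in either library, threshold 0.05). The prior was infinite, so a gene's own spread did not enter its call. The script was tested on simulated data. The p-values measure only the spread between these libraries. Alternatives were another pseudocount, a filter at a mean of 1 TPM, no trend, a robust prior, rescaling without 219 symbols of mitochondrial and ribosomal RNA, and each library alone. A count without a test was added after seeing the data. All members may be named; of other lists, up to 4 of the highest and 2 of the lowest, and partners of a member's transmitter. Genes named beyond that rule, such as C1qa, Lhx1, Tfeb, overlapping genes and markers listed at 0, were chosen after their values were seen. Members and lists were chosen with earlier results of these data known. Python 3.11.15, pandas 2.3.3 and numpy 2.4.6 were used. Protein sequences were not used here, and some genes that the rule takes go unreported.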

Additional observations from a re-analysis of the deposited data

How the results depend on the processing

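The counts above 1 TPM (24) and 10 TPM (20) were the same under a pseudocount of 0.1, a filter at a mean of 1 TPM, no variance trend, a robust prior and rescaling without mitochondrial and ribosomal RNA. Each library alone, without a test, gave 28 members at 1 TPM or more, and 22 to 24 at 10 TPM or more. The count above 100 TPM was less stable: 9 with the trend, 7 to 11 under the other fits and 11 to 12 in each library alone, but 0 without the variance trend, when 30 of all genes passed against 815 with it. The cause was not tested. The median level of the pump subunits was 6.31 and moved to 6.64 under rescaling, which raises every other gene by construction, and it ranged from 6.20 to 6.33 with each library alone. The median log2 difference of members above 0 was -0.13 as deposited and 0.003 after rescaling. Under the other fits no member changed its call above 1 TPM. The sign of a small difference between the libraries did depend on scaling: of the 15 subunits at 10 TPM or more, 7 were higher in replicate 2 as deposited and 8 after rescaling. At or over the line in both libraries, a count added after seeing the data, gave 25, 22 and 11. No paired analysis was possible because there is a single group. Depth is unknown in TPM, so a listed 0 sets no limit.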

Other observations

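Lysosomes use the same pump, and their genes were well represented. Of 13 genes of the lysosome membrane and lumen 12 were above 1 TPM and 11 above 10 TPM. The shares of all genes tested were 55.5% and 32.4%. Psap, which encodes the precursor of the saposins, had 167 TPM in replicate 1 and 181 in replicate 2. Ctsd, the cathepsin D gene, had 126 and 215 TPM, Lamp2, a lysosome membrane gene, 128 and 96.3, and Ctsl, the cathepsin L gene, 128 and 86.7. The list median was 5.98 on the log2(TPM + 1) scale, beside 6.31 for the pump subunits and 3.22 for all genes above 0.

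Other transporters of the Slc17, Slc18 and Slc30 families, outside the symbol rule, were low beside Slc17a7. Slc17a9, the vesicular nucleotide transporter, had 0.49 and 0.67 TPM and was not above 1 TPM. Slc18b1, the vesicular polyamine transporter, had 10.9 and 8.05 TPM and was above 1 TPM. Slc17a7 was 28.1-fold and 38.3-fold the level of Slc18b1. Among zinc transporter genes, Slc30a9 led with 82.2 and 64.2 TPM and Slc30a1, the exporter of the plasma membrane, had 28.2 and 35.8 TPM. Slc30a2 was listed at 0 in both libraries. Of the 11 genes on this list 10 were tested and 8 were above 1 TPM, against 55.5% of all genes tested. The 2 above 10 TPM, against 32.4% of all, were Slc30a9 and Slc30a1.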
